A study of Mus musculus with 15 samples.

Results

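The genes described here make blood clot, keep the clot in check or dissolve it: 35 genes of coagulation and fibrinolysis, followed in mouse liver under 3 diets. They were chosen by gene symbol, as the clotting factors, their plasma inhibitors and the plasminogen system. The rule uses no measured value, but the choice was made with earlier results of these data known. All 35 were found among the 56980 gene IDs of the deposited table, and all 35 were among the 14627 genes with enough reads to be tested. They fall into 5 roles: fibrinogen and fibrin stabilisation (5 genes), thrombin with the tissue factor and common pathway (5), the intrinsic and contact pathway (8), anticoagulants (10) and fibrinolysis (7).

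Most clotting factors circulate as inactive proenzymes that hepatocytes secrete. Tissue factor, exposed when a vessel is injured, binds factor VII, and the complex activates factor X, which turns prothrombin into thrombin; thrombin then cuts fibrinogen, and the resulting fibrin polymerises. The contact pathway of factor XII, plasma kallikrein, kininogen and factor XI feeds into the same common pathway through factors IX and VIII. Antithrombin, the protein C system and tissue factor pathway inhibitor restrain the cascade, and plasmin, made from plasminogen by the activators Plat and Plau, dissolves fibrin. Some of these proteins come mainly from other cells of the liver, with von Willebrand factor and factor VIII made by endothelium.

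Livers of male C57Bl/6J wild-type mice were sequenced as poly(A) RNA after 9 months on one of the diets, which began at 15 weeks of age. The titles of all samples also carry the tag ALF, whose meaning the labels do not state. The control group ate a low-fat diet with 10% fat, the high-fat group a diet with 60% fat and the ketogenic group a diet with 89.9% fat. The question was what long ketogenic feeding does to the liver's RNA. There were 5 libraries per diet, and control replicate 1, which the submitters set aside as contaminated, was left out, so that n = 4 control, 5 high-fat and 5 ketogenic libraries. Whether the libraries stem from separate mice is not in the labels, and p-values therefore reflect only the spread between samples, which may be technical.

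Total counts ran from 16329425 to 25349148 over the 14 libraries, and no pair held identical values. Levels are given as CPM, counts scaled to a common library size with TMM, in order of replicate number: control 2 to 5, high-fat 1 to 5 and ketogenic 1 to 5. Albumin alone took 6.00 to 10.9% of the reads of a library. The summed level of 9 hepatocyte markers was 130088 to 165425 CPM in the control, 90665 to 125534 in the high-fat and 73424 to 118145 in the ketogenic libraries, so that every library of the fat-rich diets lay below the controls, and 8 of the 9 markers had a lower point estimate in each comparison with control. Of these markers, 1 fell in the high-fat group (Cps1, 11.1% called, beside 12.0% of all genes). In the ketogenic group 3 fell (Cps1, Ass1 and Serpina1c, 33.3%, beside 12.1%). Most of each sum was Alb, with 92413 to 122668 CPM in the control, 65983 to 92865 in the high-fat and 49437 to 91981 in the ketogenic libraries. Serpina1c and Hnf4a are also in lists of related genes below. In such bulk samples fewer hepatocytes and less RNA per hepatocyte cannot be told apart, and the part of these markers in the results below was not tested. Ketogenic replicate 5 stood apart, with 746.7 CPM over 8 monocyte and lipid-associated macrophage markers against 95.3 to 331 CPM in the other 13 libraries. Its sum over 6 cholangiocyte markers was 202.0 CPM against 30.4 to 95.3 CPM. Of that sum 181.8 CPM was Spp1, which is also among the macrophage markers, so the sums are not independent. High-fat replicate 1 lay nearest the controls on the first principal component among the high-fat libraries. Results were therefore also computed without both libraries. Over 10 pancreatic acinar markers, control replicate 2 had 1644 CPM against 25.4 to 175 CPM in the other controls. The high-fat libraries had 107 to 742 CPM, highest in replicate 1, and the ketogenic libraries 6.88 to 331 CPM. Control replicate 2 was also the lowest control library for 14 of the 35 genes. The part of acinar RNA in the results was not tested.

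Scaled for length (CPM per kilobase of exon), the members spanned a wide range. The highest mean levels in the control livers were those of Fgg (1409.9), Vtn (1361), Fga (1329.9) and Fgb (1075) CPM per kilobase, and the lowest were those of Plat (0.0739), F13a1 (0.136) and Plaur (0.266). A gap separated 25 members at 19.7 CPM per kilobase or more from 10 at 2.32 or less, namely F8, Thbd, F3, Tfpi, Vwf, Plau, Procr, Plaur, F13a1 and Plat. The 35 genes together took 2.65 to 3.32% of all reads in the control libraries, 2.09 to 2.62% in the high-fat libraries and 2.17 to 2.51% in the ketogenic libraries. The lowest control share thus lay above the highest share of either other diet.

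Compared with control livers, high-fat livers had lower F7, Kng1 and Cpb2 and higher Vwf, and ketogenic livers had lower F7, F10, F12, Kng1, Kng2, Fgb, Fgg, Serpinc1 and Cpb2, with no member higher. In the test across all genes (edgeR, Benjamini-Hochberg adjusted p under 0.05), 4 of 35 members passed in high-fat against control (11.4%, 1 higher and 3 lower), beside 12.0% of all genes tested, of which 6.95% higher and 5.01% lower. For ketogenic against control, 9 of 35 passed (25.7%), all lower, beside 12.1% of all genes, 7.47% higher and 4.60% lower. In this fit the share in the high-fat group was thus near the background, while that in the ketogenic group was above it. This order depended on the setting. With only the 2 groups compared in the fit, 11 members passed in high-fat against control, beside 2518 of all genes. In ketogenic against control 5 members then passed, beside 1268 of all genes. The counts are thus no measure of a difference between the fat-rich diets. The median log2 difference of the members was -0.27 in high-fat and -0.33 in ketogenic livers, against 0.01 and 0.03 over all genes, and 25 of 35 members had a lower point estimate in each (71.4%, beside 49.0% and 46.5% of all genes). These 2 comparisons share the control libraries. The ranges of the 2 groups did not overlap for 13 members in high-fat against control (4 higher, 9 lower), beside 16.2% of all genes (9.45% higher, 6.79% lower), and for 13 in ketogenic against control (1 higher, 12 lower), beside 12.5% (7.38% higher, 5.17% lower).

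**Figure D1:**
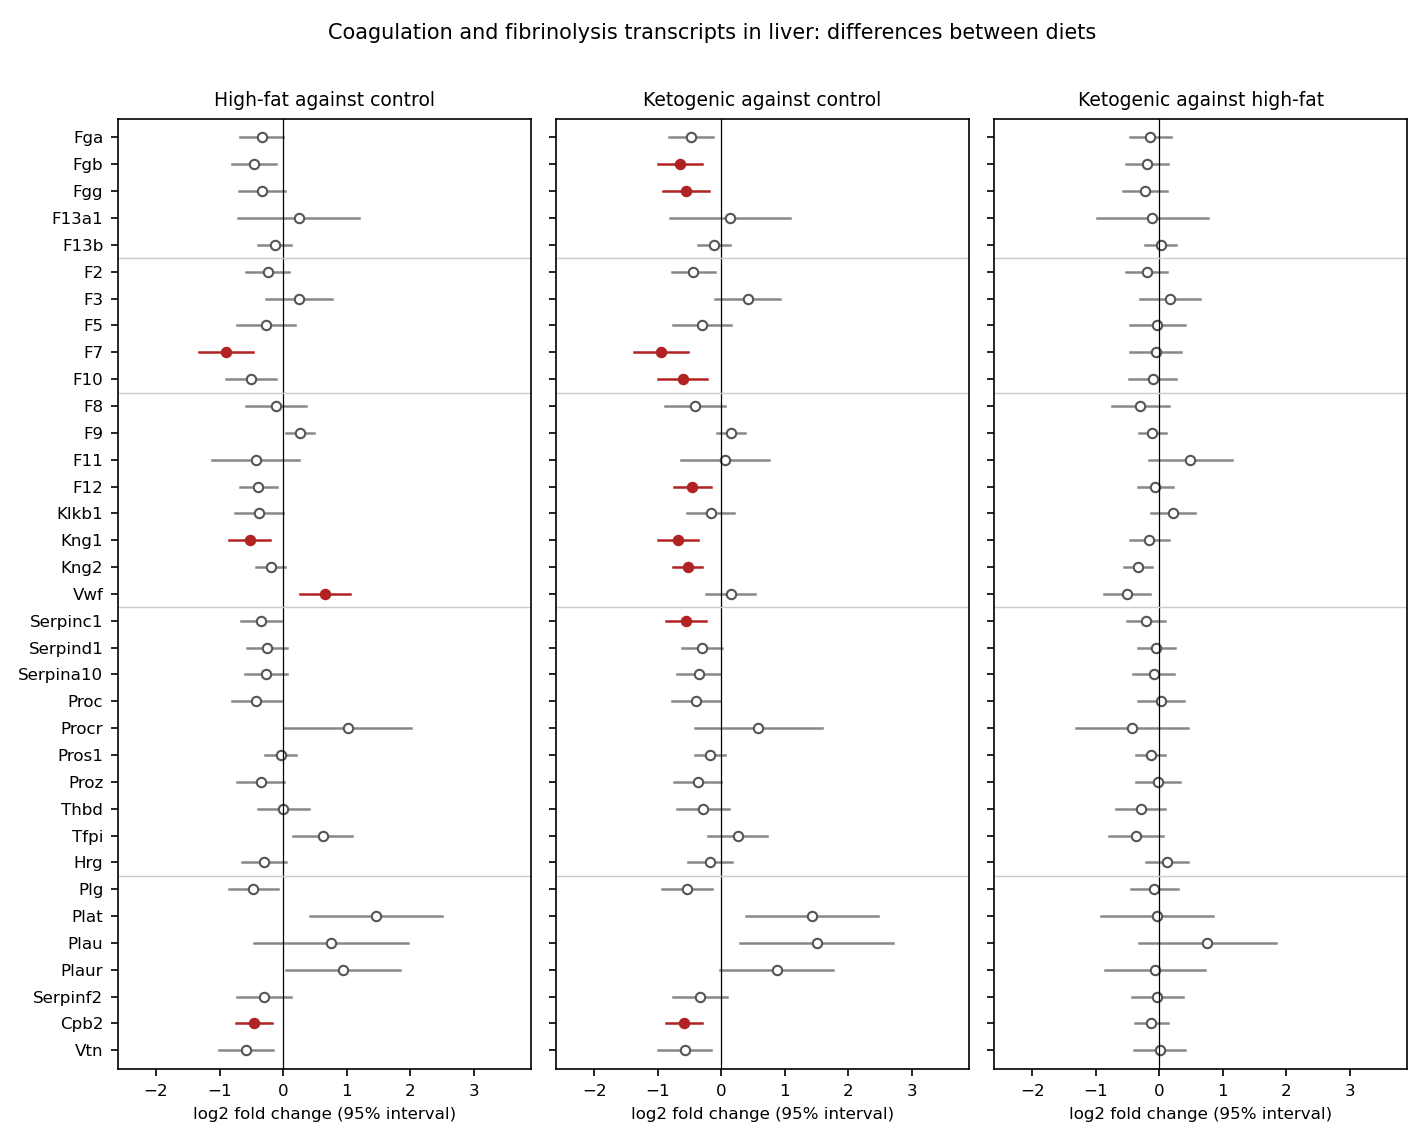
Log2 difference of each of the 35 members (rows, grouped by role) in the 3 comparisons (panels), with lines for the 95% interval and filled red points for members past the threshold. In both comparisons with control most estimates of the genes with high levels lie left of 0, and F7 is the lowest.

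The number of members that passed depended on single libraries. In high-fat against control it was 1 without control replicate 3 or 5 or high-fat replicate 2 or 3. Of all genes 1077, 1132, 1281 and 1185 passed in these settings. It was 2 without control replicate 4 or high-fat replicate 5 (beside 934 and 1192 genes) and 7 without high-fat replicate 1 (beside 2145). Without high-fat replicate 1 and ketogenic replicate 5 together 19 members passed (5 higher, 14 lower), beside 3239 genes. High-fat replicate 1 was picked for lying nearest the controls among the high-fat libraries. It was also the highest high-fat library for 17 of 35 members. Dropping it therefore favours calls against control, and the 19 are no separate support for a difference. In ketogenic against control 4 members passed without control replicate 4 (beside 1056 of all genes). Without control replicate 3 or 5 or ketogenic replicate 1 the number was 5 (beside 1156, 1124 and 1286 genes). It was 8 without high-fat replicate 1 and ketogenic replicate 5 together (beside 1943 genes). Scaling by library totals in place of TMM moved the median log2 difference of all genes from 0.01 to 0.13 in high-fat and from 0.03 to 0.21 in ketogenic livers, and the members then split into 2 higher and 3 lower in high-fat and 1 higher and 8 lower in ketogenic against control, with F9 among the higher in both. DESeq2 called 10 members in high-fat against control, with Fgb, F10, F12, Tfpi, Plat and Vtn beside the 4 above. It called 15 in ketogenic against control, where Fga, F2, Plg, Plat, Plau and Vtn came on top of the 9. Of all genes, 2441 and 2422 passed with DESeq2 and 1722 and 2194 with library totals in these 2 comparisons. Of the 13 calls, 5 held in all 17 alternative settings: F7 in both comparisons, and Kng1, Kng2 and Cpb2 in ketogenic against control. For some calls below only the left-out libraries are listed, while the counts of settings also cover the other alternatives.

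**Figure D2:**
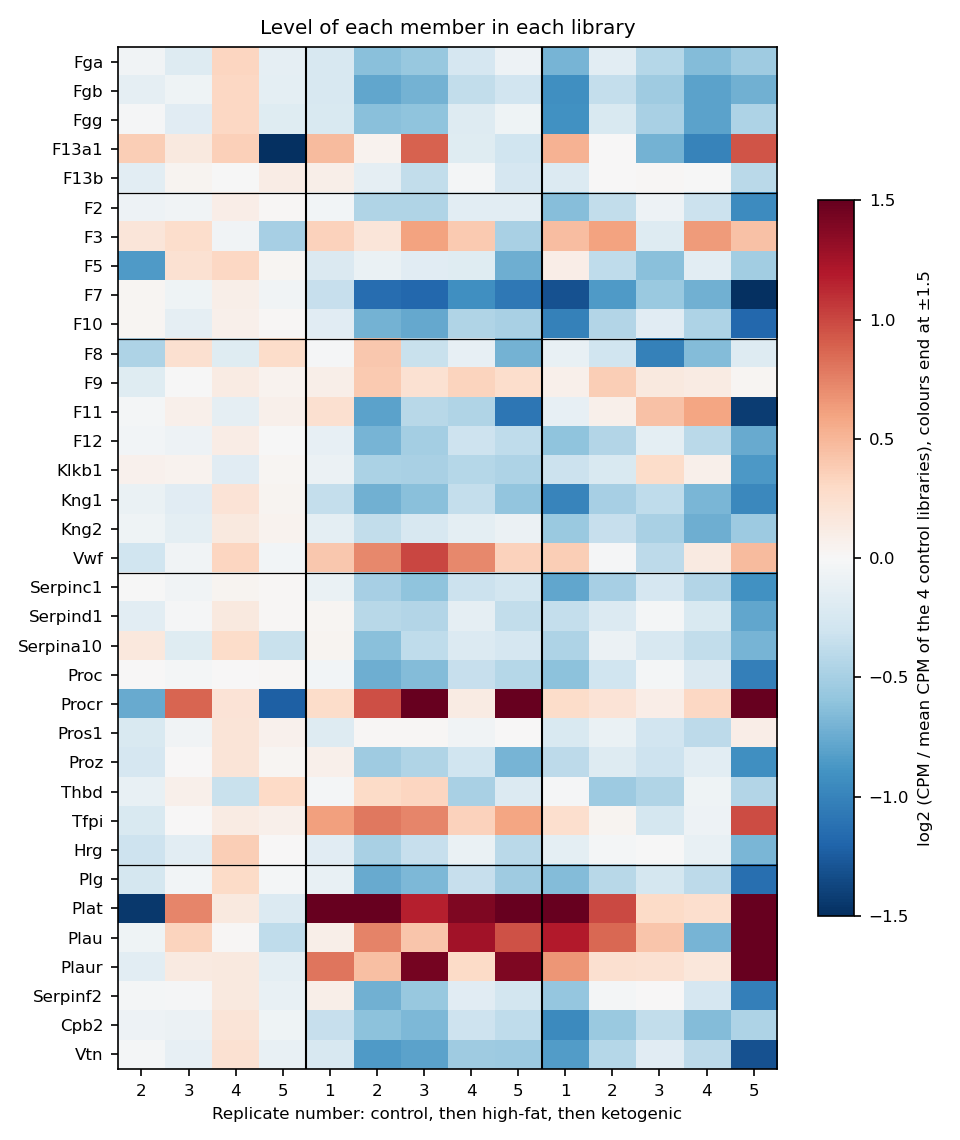
Level of every member in each of the 14 libraries as the log2 difference from the mean of the 4 control libraries, with members in rows by role, libraries in columns by diet and replicate number, and a colour scale centred on 0. Control replicate 4 was the highest control library for 24 of 35 members, and ketogenic replicate 5 was the lowest ketogenic library for 17.

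Fibrinogen, the precursor of the fibrin mesh, is built from 3 chains whose genes Fgg, Fga and Fgb lie side by side on chromosome 3. The chain genes had a lower mean in both fat-rich diets, and Fgb and Fgg passed the test in ketogenic livers. The Fgb chain was present at 3721, 3903, 5057 and 3697 CPM in the control libraries, 3471, 2376, 2513, 3163 and 3348 in the high-fat libraries and 2156, 3203, 2840.2, 2343 and 2480.4 in the ketogenic libraries. Every ketogenic and every high-fat library lay below the lowest control library. The difference was -0.65 ± 0.16 (SE, 95% interval -0.999 to -0.31, adjusted p = 0.016) on the log2 scale in ketogenic livers, a fall of 36.4%, and -0.46 ± 0.16 (SE, 95% interval -0.81 to -0.11, adjusted p = 0.0774) in high-fat livers, which did not pass. The call in ketogenic livers held in 15 of 17 settings and was lost without control replicate 4 and with the replicate number in the model (adjusted p from 0.000637 to 0.0711 over all settings).

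The Fgg chain was measured at 2920.1, 2633, 3645 and 2606 CPM in the control libraries, 2522, 1908, 1941, 2577 and 2813 in the high-fat libraries and 1569, 2521, 2112, 1697 and 2134 in the ketogenic libraries. Its ketogenic libraries were all below the controls, although the highest of them came close to the lowest control. The log2 difference was -0.56 ± 0.17 (SE, 95% interval -0.92 to -0.19, adjusted p = 0.046) in ketogenic and -0.33 ± 0.17 (SE, adjusted p = 0.234) in high-fat livers, and the ketogenic call held in 6 of 17 settings. It was lost without control replicate 2, 3, 4 or 5 or ketogenic replicate 1 or 4 (adjusted p from 0.00898 to 0.164 over all settings). The Fga chain had 3848, 3502, 5008 and 3654 CPM in the control libraries, 3384, 2586, 2699.6, 3354 and 3809 in the high-fat libraries and 2464, 3587, 2977, 2550.2 and 2771 in the ketogenic libraries. Its groups overlapped, and its difference was -0.48 ± 0.16 (SE, 95% interval -0.82 to -0.14, adjusted p = 0.066) in ketogenic and -0.34 ± 0.16 (SE, adjusted p = 0.189) in high-fat livers. The ratio of Fgb to Fga CPM was 0.967 to 1.11 in the control, 0.879 to 1.03 in the high-fat and 0.875 to 0.954 in the ketogenic libraries, so that it was lower in every ketogenic than in every control library. Fgg to Fga was 0.713 to 0.759 in the control, 0.719 to 0.768 in the high-fat and 0.637 to 0.77 in the ketogenic libraries, with overlap. These ratios were chosen after the values were seen and have no test. Reads of Fgg may include some of an overlapping gene on the opposite strand, since nothing used here states the strand setting of the counting.

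Because the 3 chain genes share a locus and had lower means together, the 300 bases around their starts (250 before and 50 after) are shown, from RefSeq on build GRCm38.p6, 5′ to 3′ in the direction of the gene. Capitals mark matches, on either strand, to 5 motifs: HNF1 (GTTAATNAT), C/EBP (TTGCNNAA), the HNF4 direct repeat (CAAAGTCCA), the IL-6 response element (CTGGGAA) and the E-box (CACGTG). The windows are chr3:83025903-83026202, plus strand, for Fga, chr3:83049814-83050113, minus strand, for Fgb, and chr3:83007474-83007773, plus strand, for Fgg.
Fga: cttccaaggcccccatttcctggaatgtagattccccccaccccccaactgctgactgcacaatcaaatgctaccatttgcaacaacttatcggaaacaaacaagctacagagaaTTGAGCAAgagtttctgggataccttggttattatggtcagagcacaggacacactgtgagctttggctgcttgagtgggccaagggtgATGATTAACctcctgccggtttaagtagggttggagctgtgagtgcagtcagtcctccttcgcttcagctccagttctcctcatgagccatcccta
Fgb: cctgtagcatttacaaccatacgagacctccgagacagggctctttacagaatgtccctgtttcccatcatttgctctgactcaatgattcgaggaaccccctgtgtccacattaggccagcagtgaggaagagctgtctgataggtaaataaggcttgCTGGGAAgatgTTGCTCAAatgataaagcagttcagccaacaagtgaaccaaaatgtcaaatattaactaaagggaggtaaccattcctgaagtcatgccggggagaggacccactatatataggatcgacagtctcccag
Fgg: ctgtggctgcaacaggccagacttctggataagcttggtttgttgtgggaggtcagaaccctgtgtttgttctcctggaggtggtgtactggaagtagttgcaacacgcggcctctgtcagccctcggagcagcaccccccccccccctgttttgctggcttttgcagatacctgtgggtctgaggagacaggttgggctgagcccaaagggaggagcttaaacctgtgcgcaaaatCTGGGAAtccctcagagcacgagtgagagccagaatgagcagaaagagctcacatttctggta
The Fga window held a C/EBP match whose first base is at -135 (counted back from the start site, which is position 1) and an HNF1 match at -46. In the Fgb window an IL-6 response element began at -91 and a C/EBP match at -80, and in the Fgg window an IL-6 response element began at -13. In these windows no matches overlapped. Promoter entries were matched for 27 of the 35 members; those of Kng1, Vwf, Serpina10, Proc, Thbd, Plg, Plat and Plau were not analysed here. C/EBP matches were in 11 of these (10.8% of all 32851 promoters), IL-6 response elements in 6 (11.1%), HNF1 in 2 (0.801%), the E-box in 1 (7.15%) and the HNF4 repeat in 0 (0.475%). A match is a description of letters and not of binding.

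The subunits of factor XIII, which crosslinks fibrin, did not pass the test. F13b, the carrier subunit, had 196 to 235 CPM in the control, 169 to 231 in the high-fat and 164 to 221 in the ketogenic libraries. F13a1, the catalytic subunit, known from macrophages and platelets, was near the lower limit of what was tested, at 0.285 to 1.19 CPM in the control, 0.746 to 1.69 in the high-fat and 0.459 to 1.76 in the ketogenic libraries.

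Factor VII, the protease that tissue factor activates, showed the largest fall of any member in both comparisons with control. F7 had 155, 146, 162 and 147 CPM in the control libraries, 120.1, 68.8, 67.2, 80.3 and 72.5 in the high-fat libraries and 61.6, 84.4, 104, 92.8 and 50.9 in the ketogenic libraries. All 10 libraries of the fat-rich diets lay below the lowest control, and high-fat replicate 1 and ketogenic replicate 3 were the highest of their groups. On the log2 scale the difference was -0.90 ± 0.20 (SE, 95% interval -1.32 to -0.47, adjusted p = 0.00917) in high-fat livers and -0.95 ± 0.20 (SE, 95% interval -1.38 to -0.53, adjusted p = 0.00571) in ketogenic livers, falls of 46.4% and 48.4%. Over the 17 alternative settings it ran from -1.08 to -0.79 in high-fat and from -1.07 to -0.81 in ketogenic livers, and it passed in all of them. The 2 fat-rich diets differed by -0.06 ± 0.19 (SE, 95% interval -0.46 to 0.35, adjusted p = 0.978), an interval that leaves room for a change in either direction.

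The window around the start of F7, as the member with the largest fall, is chr8:13025784-13026083, plus strand, on GRCm38.p6, from RefSeq, and holds none of the 5 motif spellings.
F7: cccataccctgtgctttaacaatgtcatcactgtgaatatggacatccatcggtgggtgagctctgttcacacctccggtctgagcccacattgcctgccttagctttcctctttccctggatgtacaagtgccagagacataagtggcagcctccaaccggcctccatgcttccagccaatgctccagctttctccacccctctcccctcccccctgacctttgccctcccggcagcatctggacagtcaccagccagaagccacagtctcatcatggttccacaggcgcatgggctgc
The windows of F10 and F12 also held no match, which says only that these letters are not in them.

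F10, which encodes the protease that activates prothrombin, is the next gene after F7 on chromosome 8. It had 604, 540.4, 622 and 599.5 CPM in the control libraries, 528, 362, 348, 432 and 421 in the high-fat libraries and 294, 435, 524, 428 and 261 in the ketogenic libraries. Both fat-rich groups lay wholly below the controls. The difference in log2 units was -0.61 ± 0.18 (SE, 95% interval -0.998 to -0.22, adjusted p = 0.0424) in ketogenic livers, and the call held in 6 of 17 settings. It was lost without control replicate 2, 3, 4 or 5 or ketogenic replicate 1, 2, 4 or 5 (adjusted p from 0.0121 to 0.108 over all settings). In high-fat livers it was -0.50 ± 0.18 (SE, 95% interval -0.89 to -0.11, adjusted p = 0.0881) and did not pass. F10 to F7 CPM was 3.70 to 4.09 in the control, 4.39 to 5.81 in the high-fat and 4.61 to 5.16 in the ketogenic libraries, without overlap between control and either other diet, a ratio chosen after the values were seen. Proz, the next gene in the row and the cofactor of an inhibitor of activated factor X, had 369 to 503 CPM in the control, 271 to 467 in the high-fat and 233 to 394 in the ketogenic libraries and a log2 difference of -0.35 ± 0.17 (SE, adjusted p = 0.198) in high-fat and -0.37 ± 0.17 (SE, adjusted p = 0.175) in ketogenic livers.

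**Figure D3:**
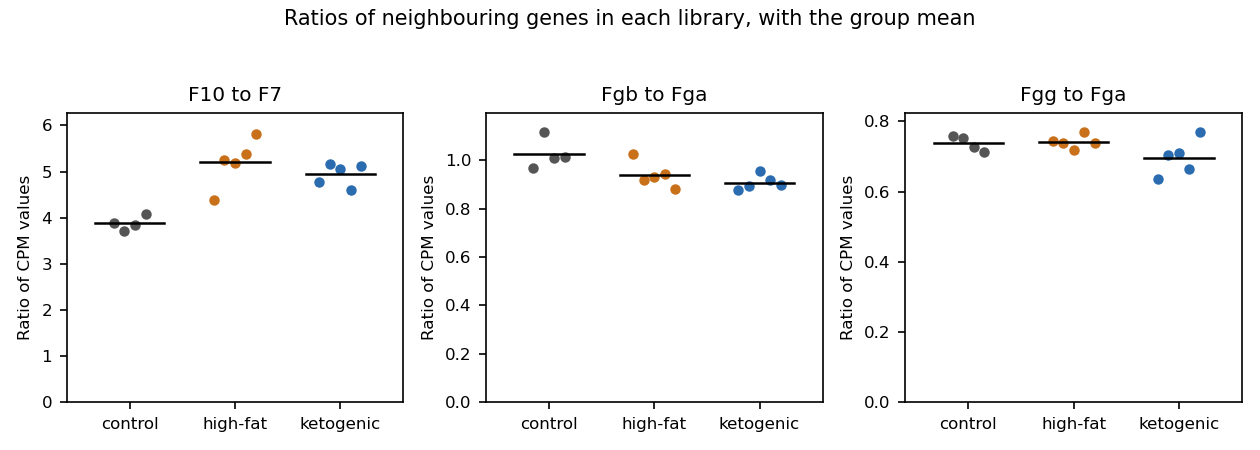
Ratio of CPM values of neighbouring genes in each library (points) with the group mean (line): F10 to F7, Fgb to Fga and Fgg to Fga, each axis starting at 0. The F10 to F7 ratio is 3.70 to 4.09 in the control libraries and 4.39 or more in all others.

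Prothrombin, F2, had 2052, 2088, 2320.4 and 2196 CPM in the control libraries, 2111, 1579, 1579, 1946 and 1941 in the high-fat libraries and 1392, 1678, 2060.0, 1724 and 1128 in the ketogenic libraries. Ketogenic and high-fat libraries reached into the control range. Its log2 difference was -0.44 ± 0.16 (SE, 95% interval -0.78 to -0.10, adjusted p = 0.0875) in ketogenic and -0.24 ± 0.16 (SE, 95% interval -0.58 to 0.10, adjusted p = 0.352) in high-fat livers, and neither passed. F5, the cofactor with which factor Xa activates prothrombin, varied among the controls (435 to 973 CPM in the control, 471 to 728 in the high-fat and 505 to 837 in the ketogenic libraries), with control replicate 2 the lowest of all 14, and did not pass. Tissue factor, F3, was low, at 1.77 to 3.00 CPM in the control, 1.79 to 3.81 in the high-fat and 2.20 to 3.905 in the ketogenic libraries, and its estimate was higher without passing, by 0.42 ± 0.24 (SE, adjusted p = 0.272) in ketogenic livers.

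In the intrinsic and contact pathway the kininogens fell together with factor XII in ketogenic livers. Kng1 encodes high and low molecular weight kininogen, the source of bradykinin and the carrier of plasma kallikrein. It was present at 2320.4, 2224, 2878 and 2558 CPM in the control libraries, 1952, 1518, 1611, 1941 and 1655 in the high-fat libraries and 1261, 1773, 1915, 1551 and 1279 in the ketogenic libraries. No library of a fat-rich diet reached the lowest control. Relative to control, the log2 difference was -0.52 ± 0.15 (SE, 95% interval -0.84 to -0.20, adjusted p = 0.034) in high-fat and -0.68 ± 0.15 (SE, 95% interval -1.002 to -0.36, adjusted p = 0.00789) in ketogenic livers. The ketogenic call held in all 17 settings and the high-fat call in 8 of 17. The latter was lost without control replicate 3, 4 or 5 or high-fat replicate 2, 3 or 5 (adjusted p from 0.00431 to 0.12 over all settings). It was also lost with no filter on low counts, and with the replicate number or a split of the library numbers in the model.

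Kng2, the second mouse kininogen gene and the neighbour of Kng1 on chromosome 16, had 303, 287, 351 and 330.2 CPM in the control libraries, 287, 247, 269.7, 288 and 299.5 in the high-fat libraries and 217, 249.4, 227, 191 and 218 in the ketogenic libraries. All ketogenic libraries were below all controls, while high-fat libraries overlapped the controls. The log2 difference was -0.53 ± 0.11 (SE, 95% interval -0.75 to -0.30, adjusted p = 0.00417) in ketogenic and -0.19 ± 0.11 (SE, adjusted p = 0.258) in high-fat livers. Between the fat-rich diets it was -0.34 ± 0.10 (SE, 95% interval -0.55 to -0.12, adjusted p = 0.259), the lowest adjusted p of any member in that comparison, and of the settings run only DESeq2 called it. Kng2 to Kng1 CPM was 0.122 to 0.131 in the control, 0.147 to 0.181 in the high-fat and 0.119 to 0.172 in the ketogenic libraries, so that every high-fat library had a higher ratio than every control, again a ratio chosen after the values were seen. Of the 50-base stretches of Kng1 and Kng2 transcripts, 17.2% and 19.4% occur in another gene, chiefly in each other, so the split of reads between them is uncertain.

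F12, the zymogen that starts the contact pathway, had 568, 554, 629.5 and 579 CPM in the control libraries, 533, 361, 409, 470.2 and 447 in the high-fat libraries and 383, 431, 527, 441 and 346 in the ketogenic libraries. Both fat-rich groups lay below the controls. On the log2 scale the difference was -0.45 ± 0.14 (SE, 95% interval -0.74 to -0.16, adjusted p = 0.041) in ketogenic livers, and -0.39 ± 0.14 (SE, 95% interval -0.68 to -0.10, adjusted p = 0.0735) in high-fat livers, which did not pass. The ketogenic call held in 4 of 17 settings and was lost without control replicate 2, 3, 4 or 5 or ketogenic replicate 1, 2, 4 or 5 (adjusted p from 0.00874 to 0.12 over all settings). Klkb1, plasma prekallikrein, had 151 to 177 CPM in the control, 121 to 159 in the high-fat and 93.1 to 205 in the ketogenic libraries, and F11, its neighbour on chromosome 8 and close relative, had 63.5 to 73.2 CPM in the control, 32.8 to 82.2 in the high-fat and 26.0 to 105 in the ketogenic libraries; neither passed, and the spread of F11 was wide, with ketogenic replicate 4 highest and ketogenic replicate 5 lowest. The reads of Klkb1 are uncertain, since 42.7% of its 50-base stretches also lie in an overlapping predicted gene. F9, the protease deficient in haemophilia B, pointed the other way from most members made by hepatocytes, at 171 to 211 CPM in the control, 207 to 255 in the high-fat and 198 to 252 in the ketogenic libraries, with a log2 difference of 0.26 ± 0.11 (SE, adjusted p = 0.116) in high-fat livers. F8, its cofactor, had 16.7 to 27.9 CPM in the control, 14.03 to 30.4 in the high-fat and 11.4 to 21.3 in the ketogenic libraries and did not pass.

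Von Willebrand factor, the adhesive protein that carries factor VIII, was the member that rose. Vwf had 9.22, 10.9, 14.1 and 11.02 CPM in the control libraries, 15.0, 18.7, 22.6, 18.7 and 14.4 in the high-fat libraries and 14.7, 11.2, 8.63, 12.4 and 15.8 in the ketogenic libraries. Every high-fat library lay above the highest control, by a small margin for high-fat replicates 1 and 5, and ketogenic libraries overlapped both groups. The difference in log2 units was 0.66 ± 0.18 (SE, 95% interval 0.27 to 1.05, adjusted p = 0.0293) in high-fat livers, a 1.58-fold rise, and 0.15 ± 0.18 (SE, 95% interval -0.24 to 0.54, adjusted p = 0.63) in ketogenic livers. The difference between the fat-rich diets was -0.51 ± 0.17 (SE, 95% interval -0.87 to -0.15, adjusted p = 0.33), which did not pass, although it did without high-fat replicate 1 and ketogenic replicate 5 together. The high-fat call held in 10 of 17 settings and was lost without control replicate 2, 3 or 5 or high-fat replicate 2, 3 or 4 (adjusted p from 0.00979 to 0.0755 over all settings). It was also lost with the replicate number in the model.

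Vwf is a gene of endothelium and megakaryocytes, so their markers are given beside it. Of 11 endothelial markers 0 rose and 1 (Kdr) fell in each comparison with control, and their summed level was 340.2 to 419 CPM in the control, 345 to 463 in the high-fat and 289 to 425 in the ketogenic libraries. Of 8 platelet markers 3 were tested and 1 rose in high-fat livers (Pf4), by 1.41 ± 0.40 (SE, adjusted p = 0.0333) on the log2 scale. The summed platelet marker level was 4.34 to 6.28 CPM in the control, 3.99 to 17.2 in the high-fat and 2.91 to 5.199 in the ketogenic libraries. Their part in the difference of Vwf was not tested.

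**Figure D4:**
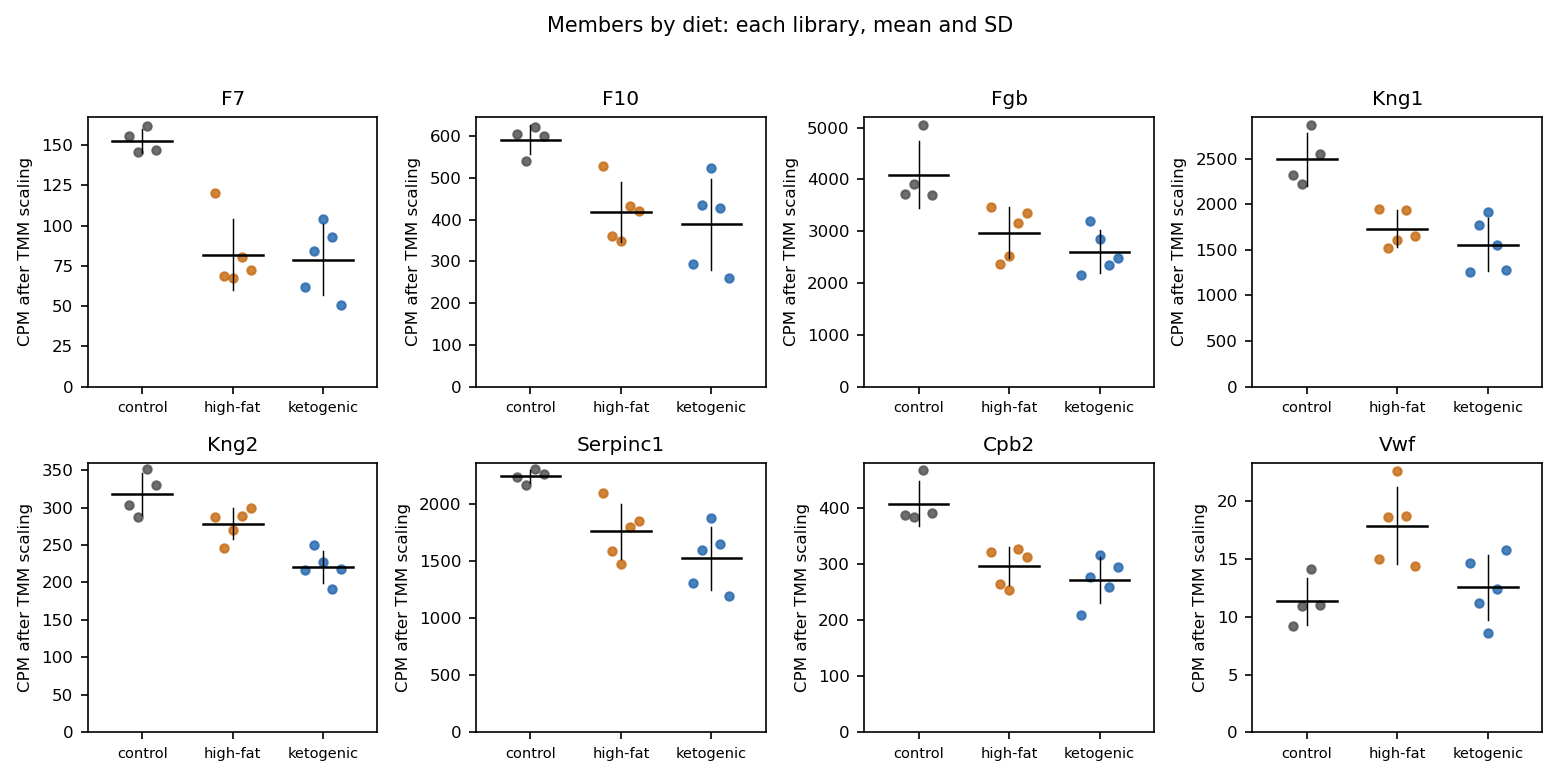
CPM after TMM scaling in each library (points), with the group mean (line) and SD (bar), for 8 of the members that passed the test in a comparison with control. For F7 the control libraries sit between 146 and 162 CPM, above all others, and for Vwf the high-fat libraries sit above the controls.

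Among the anticoagulants 0 of 10 passed in high-fat and 1 of 10 in ketogenic livers, a share near the 12.1% of all genes. Serpinc1 encodes antithrombin, the main plasma inhibitor of thrombin and factor Xa. It had 2235, 2170.3, 2303 and 2267 CPM in the control libraries, 2096, 1588, 1471, 1795 and 1852 in the high-fat libraries and 1304, 1594, 1881, 1653 and 1191 in the ketogenic libraries. The 4 controls had an SD of 56.4 CPM, and all other libraries lay below them. Relative to control, the log2 difference was -0.56 ± 0.15 (SE, 95% interval -0.87 to -0.25, adjusted p = 0.021) in ketogenic and -0.35 ± 0.15 (SE, 95% interval -0.66 to -0.04, adjusted p = 0.135) in high-fat livers. The ketogenic call held in 11 of 17 settings and was lost without control replicate 3, 4 or 5 or ketogenic replicate 1 (adjusted p from 0.00132 to 0.0667 over all settings). Of its 50-base stretches 33.6% are shared, mainly with Zbtb37 on the opposite strand, whose mean was 4.06 CPM in the controls, 5.48 in the high-fat and 6.36 in the ketogenic livers.

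Protein C, which inactivates factors Va and VIIIa, lay below the controls in every other library without passing: Proc had 613, 597, 609 and 616 CPM in the control libraries, 589.6, 366, 387, 479 and 452 in the high-fat libraries and 396, 494, 596, 524 and 299 in the ketogenic libraries. The log2 difference was -0.42 ± 0.18 (SE, 95% interval -0.80 to -0.04, adjusted p = 0.143) in high-fat and -0.40 ± 0.18 (SE, 95% interval -0.78 to -0.02, adjusted p = 0.161) in ketogenic livers. Its cofactor Pros1 had 68.9 to 92.1 CPM in the control, 70.6 to 82.0 in the high-fat and 61.6 to 86.4 in the ketogenic libraries, and its receptor Procr and the thrombin receptor Thbd, both known from endothelium, had 0.285 to 1.22 CPM in the control, 0.729 to 2.11 in the high-fat and 0.715 to 1.90 in the ketogenic libraries and 5.48 to 8.51 CPM in the control, 4.94 to 8.65 in the high-fat and 4.73 to 6.83 in the ketogenic libraries. None of the 3 passed.

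Tissue factor pathway inhibitor was higher in every high-fat library than in every control. Tfpi had 4.02, 4.73, 5.12 and 4.97 CPM in the control libraries, 7.23, 8.18, 7.80, 5.99 and 7.11 in the high-fat libraries and 5.60, 4.83, 3.93, 4.46 and 9.30 in the ketogenic libraries, and its log2 difference was 0.62 ± 0.22 (SE, 95% interval 0.16 to 1.08, adjusted p = 0.0743) in high-fat and 0.26 ± 0.22 (SE, adjusted p = 0.459) in ketogenic livers. It did not pass. Heparin cofactor II (Serpind1) had 529 to 649 CPM in the control, 434 to 598 in the high-fat and 342 to 574 in the ketogenic libraries. The protein Z-dependent inhibitor Serpina10 had 164 to 249.6 CPM in the control, 134 to 213 in the high-fat and 128 to 194 in the ketogenic libraries, and histidine-rich glycoprotein (Hrg), which binds heparin and plasminogen, had 984 to 1584 CPM in the control, 873 to 1138 in the high-fat and 761 to 1213 in the ketogenic libraries. These 3 had lower estimates in both diets, from -0.36 to -0.18 on the log2 scale, and did not pass.

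Of the 7 fibrinolysis genes 1 passed in each comparison with control (14.3%, near the 12.0% and 12.1% of all genes). Cpb2 encodes the carboxypeptidase TAFI, which trims fibrin and so slows its digestion by plasmin. It had 387, 383, 467 and 390.4 CPM in the control libraries, 321, 265, 254, 327 and 313 in the high-fat libraries and 209, 277, 316, 259.7 and 294 in the ketogenic libraries. All controls lay above all other libraries. On the log2 scale the difference was -0.46 ± 0.13 (SE, 95% interval -0.74 to -0.18, adjusted p = 0.0325) in high-fat and -0.58 ± 0.13 (SE, 95% interval -0.86 to -0.31, adjusted p = 0.00863) in ketogenic livers. The ketogenic call held in all 17 settings and the high-fat call in 8 of 17. The latter was lost without control replicate 3, 4 or 5 or high-fat replicate 2, 3 or 5 (adjusted p from 0.00523 to 0.12 over all settings). It was also lost with library totals in place of TMM, with no filter on low counts and with the replicate number in the model. Its promoter window is shown because Cpb2 is, with F7 and Kng1, one of the members that fell in both diets; it is chr14:75242037-75242336, plus strand, on GRCm38.p6, from RefSeq, with a C/EBP match in capitals at position 9.
Cpb2: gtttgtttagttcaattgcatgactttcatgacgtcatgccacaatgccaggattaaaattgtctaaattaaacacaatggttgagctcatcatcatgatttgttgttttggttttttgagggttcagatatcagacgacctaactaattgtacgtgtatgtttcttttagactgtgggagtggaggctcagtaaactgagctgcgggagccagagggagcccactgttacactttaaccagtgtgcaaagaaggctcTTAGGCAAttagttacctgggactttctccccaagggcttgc

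Plasminogen, the zymogen of plasmin, had 2531, 2943, 3685 and 2967 CPM in the control libraries, 2806, 1794, 1893, 2389 and 2094 in the high-fat libraries and 1930.0, 2264, 2524, 2305 and 1381 in the ketogenic libraries. Ketogenic libraries lay below all controls, and high-fat libraries overlapped them through high-fat replicate 1. The log2 difference of Plg was -0.54 ± 0.18 (SE, 95% interval -0.93 to -0.15, adjusted p = 0.0676) in ketogenic and -0.47 ± 0.18 (SE, 95% interval -0.86 to -0.07, adjusted p = 0.113) in high-fat livers, and neither passed. Vitronectin (Vtn), an adhesive glycoprotein of plasma and matrix, had 2698, 2537, 3250.1 and 2568 CPM in the control libraries, 2332, 1529, 1588, 1903 and 1889 in the high-fat libraries and 1545, 2052, 2457, 2099 and 1121 in the ketogenic libraries. Both fat-rich groups lay below the controls, with differences of -0.58 ± 0.20 (SE, 95% interval -1.003 to -0.16, adjusted p = 0.07) in high-fat and -0.58 ± 0.20 (SE, 95% interval -0.998 to -0.15, adjusted p = 0.0723) in ketogenic livers that did not pass. The plasmin inhibitor Serpinf2 had 659 to 788 CPM in the control, 433 to 757 in the high-fat and 348 to 713 in the ketogenic libraries and overlapped.

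The activators of plasminogen, Plat and Plau, and the receptor of Plau were low and had higher point estimates than in control livers. Plat had 0.17, 0.764, 0.512 and 0.4 CPM in the control libraries, 1.33, 1.363, 1.03, 1.21 and 1.54 in the high-fat libraries and 1.53, 0.918, 0.562, 0.551 and 2.67 in the ketogenic libraries. Its high-fat libraries were all above its controls, and the log2 difference was 1.46 ± 0.49 (SE, 95% interval 0.42 to 2.51, adjusted p = 0.0643) in high-fat and 1.43 ± 0.49 (SE, 95% interval 0.39 to 2.46, adjusted p = 0.0687) in ketogenic livers. Plau had 1.08 to 1.78 CPM in the control, 1.503 to 3.40 in the high-fat and 0.873 to 11.4 in the ketogenic libraries and the receptor Plaur 0.622 to 0.768 CPM in the control, 0.85 to 1.88 in the high-fat and 0.781 to 2.82 in the ketogenic libraries, with ketogenic replicate 5 the highest library of all 14 for Plat, Plau and Plaur. That library also had the highest macrophage marker sums, and their part in these values was not tested. None of these 3 passed.

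Between the fat-rich diets 0 of 35 members passed, beside 0.0615% of all genes, 0.00684% higher and 0.0547% lower (9 genes in all by edgeR, and 1273 at an unadjusted p under 0.05). DESeq2 called 1 member, Kng2, and 173 genes. The median log2 difference of ketogenic from high-fat livers was -0.09 over the members and 0.02 over all genes, and 27 of 35 members had a lower estimate. For no member were the 2 groups apart, beside 1.76% of all genes (0.875% higher, 0.889% lower). Without ketogenic replicate 5 Tfpi passed as lower, and without that library and high-fat replicate 1 together F11 passed as higher and Vwf and Tfpi as lower. A p that misses the threshold does not show that the diets act alike: the interval was -0.52 to 0.14 for Fgb, -0.48 to 0.26 for F10 and -0.50 to 0.09 for Serpinc1.

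Genes outside the 35 that act on the same proteins were read from fixed lists. Of 11 genes of the vitamin K cycle and of factor processing and secretion, 1 rose and 3 fell in high-fat livers and 1 rose and 4 fell in ketogenic livers, with medians of -0.24 and -0.16. Of all genes tested 6.95% rose and 5.01% fell in high-fat and 7.47% rose and 4.60% fell in ketogenic livers. Vitamin K is the cofactor with which Ggcx carboxylates prothrombin, factors VII, IX and X and proteins C, S and Z. Ggcx itself had a log2 difference of -0.21 ± 0.12 (SE, adjusted p = 0.293) in high-fat and 0.04 ± 0.12 (SE, adjusted p = 0.871) in ketogenic livers, and the epoxide reductase Vkorc1 -0.34 ± 0.18 (SE, adjusted p = 0.245) and -0.28 ± 0.18 (SE, adjusted p = 0.329), none passing. Vkorc1l1, its paralogue, fell by a little in both diets, -0.37 ± 0.10 (SE, adjusted p = 0.0221) and -0.35 ± 0.10 (SE, adjusted p = 0.0255). Calls of Vkorc1l1 were lost when library totals replaced TMM, and without control replicate 3, 4 or 5 or high-fat replicate 5 in high-fat and without control replicate 3, 4 or 5 or ketogenic replicate 2 in ketogenic livers. In high-fat livers its call held in 11 of 17 settings and was also lost with no filter on low counts.

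Tpst1, which sulfates tyrosines of secreted proteins such as factors V and VIII, had 41.1, 41.5, 48.0 and 40.1 CPM in the control libraries, 27.8, 14.8, 15.1, 19.4 and 14.03 in the high-fat libraries and 16.8, 22.1, 27.7, 28.4 and 14.5 in the ketogenic libraries. All libraries of both diets lay below the controls, and the log2 difference was -1.23 ± 0.22 (SE, adjusted p = 0.00222) in high-fat and -0.96 ± 0.22 (SE, adjusted p = 0.00899) in ketogenic livers. Its relative Tpst2, named here after its values were seen, fell in ketogenic livers, with -0.55 ± 0.16 (SE, adjusted p = 0.0366). That call was lost without control replicate 2, 4 or 5 or ketogenic replicate 1 or 2. Lman1, the cargo receptor that carries factors V and VIII out of the endoplasmic reticulum, had 308, 415, 398 and 397 CPM in the control libraries, 293, 252, 199, 232 and 158 in the high-fat libraries and 254, 258, 240.2, 301 and 184 in the ketogenic libraries. It fell in both diets, -0.74 ± 0.17 (SE, adjusted p = 0.012) in high-fat and -0.62 ± 0.17 (SE, adjusted p = 0.0286) in ketogenic livers. Nqo1, a quinone reductase, rose by 1.70 ± 0.28 (SE, adjusted p = 0.00118) and 1.56 ± 0.27 (SE, adjusted p = 0.00155) on the log2 scale. The calls of Tpst1 and Nqo1 held in all 17 settings in both comparisons, and that of Lman1 in 17 of 17 and 12 of 17, being lost in ketogenic livers without control replicate 3, 4 or 5 or ketogenic replicate 1.

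Of 30 further coagulation and fibrinolysis genes 25 could be tested, and 4 rose and 1 fell in high-fat (20% called, beside 12.0% of all genes) and 4 rose and 2 fell in ketogenic livers (24%, beside 12.1%). S100a10 and Anxa2 form a cell-surface receptor for plasminogen and its activator. S100a10 rose by 2.06 ± 0.29 (SE, adjusted p = 0.000504) in high-fat and 1.80 ± 0.29 (SE, adjusted p = 0.000821) in ketogenic livers on the log2 scale, and Anxa2, named after its values were seen, by 2.02 ± 0.52 (SE, adjusted p = 0.0242) and 1.74 ± 0.51 (SE, adjusted p = 0.0441), with overlap of the groups. The calls of Anxa2 were lost without control replicate 3, 4 or 5 or high-fat replicate 5 in high-fat and without control replicate 3, 4 or 5 or ketogenic replicate 1, 2 or 5 in ketogenic livers. In high-fat livers the Anxa2 call held in 12 of 17 settings and was also lost with no filter on low counts. Tfpi2, a Kunitz inhibitor of plasmin in the matrix, rose by 0.95 ± 0.16 (SE, adjusted p = 0.0014) in high-fat and 0.66 ± 0.16 (SE, adjusted p = 0.0122) in ketogenic livers, the latter lost without control replicate 4.

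Markers of other cells are given beside these genes, without a test of whether they move together. The summed level of 8 stellate cell and fibroblast markers was 284 to 307 CPM in the control, 378 to 482 in the high-fat and 323 to 695 in the ketogenic libraries, with every fat-rich library above the controls. Of the 8, 2 rose in high-fat (25% called) and 3 in ketogenic livers (37.5%), beside 12.0% and 12.1% of all genes called. Over 8 monocyte and lipid-associated macrophage markers it was 95.3 to 169 CPM in the control, 210.0 to 331 in the high-fat and 109.8 to 747 in the ketogenic libraries. Of these 8, 1 rose in high-fat (12.5% called) and 2 in ketogenic livers (25%). Over 8 Kupffer cell and macrophage markers the sum was 279.6 to 431 CPM in the control, 332 to 555 in the high-fat and 258 to 745 in the ketogenic libraries. Of the Kupffer list 0 rose in either comparison with control, and 1 fell in ketogenic livers. Over 6 cholangiocyte markers, 5 of them tested and 0 called, the sum was 30.4 to 48.0 CPM in the control, 58.5 to 95.3 in the high-fat and 31.1 to 202 in the ketogenic libraries. Much of it was Spp1, which is also in the macrophage list. Spp1 had 21.2 to 33.3 CPM in the control, 46.1 to 81.5 in the high-fat and 19.5 to 182 in the ketogenic libraries. Their part in the rise of S100a10, Anxa2 and Tfpi2 was not tested.

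Serpine2, an inhibitor of thrombin and plasminogen activators, had 38.9, 28.3, 36.0 and 31.6 CPM in the control libraries, 14.1, 6.87, 6.67, 13.4 and 7.66 in the high-fat libraries and 8.62, 14.2, 32.99, 43.7 and 9.48 in the ketogenic libraries. Its high-fat libraries lay below its controls and its ketogenic libraries were spread over both ranges. Relative to control, the log2 difference was -1.79 ± 0.45 (SE, adjusted p = 0.0211) in high-fat and -0.63 ± 0.44 (SE, adjusted p = 0.372) in ketogenic livers, and between these diets 1.1597 ± 0.43 (SE, 95% interval 0.24 to 2.08, adjusted p = 0.414). The high-fat call held in 13 of 17 settings. It was lost with no filter on low counts and without control replicate 4 or high-fat replicate 3 or 5 (adjusted p from 0.000287 to 0.0662 over all settings). Serpina1c and Serpina1d, copies of alpha-1 antitrypsin, fell in ketogenic livers by 0.84 (adjusted p = 0.0231) and 0.85 (adjusted p = 0.0255) on the log2 scale. The copies are nearly identical, so that reads may be split between them, and the second was named after its values were seen. These calls were lost without control replicate 2 or 4 or ketogenic replicate 1 or 2 for the first and without control replicate 3, 4 or 5 or ketogenic replicate 1 for the second. Neither copy passed in high-fat livers. The other copies on the list, Serpina1a, Serpina1b and Serpina1e, passed in neither comparison with control. Serpina1b had 3636 to 4081 CPM in the control, 2898 to 4247 in the high-fat and 2152 to 4233 in the ketogenic libraries. Serpina1e spread most, with 6403 to 10243, 270 to 4962 and 224 to 7106 CPM. The calls of S100a10 held in all 17 settings in both comparisons.

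**Figure D5:**
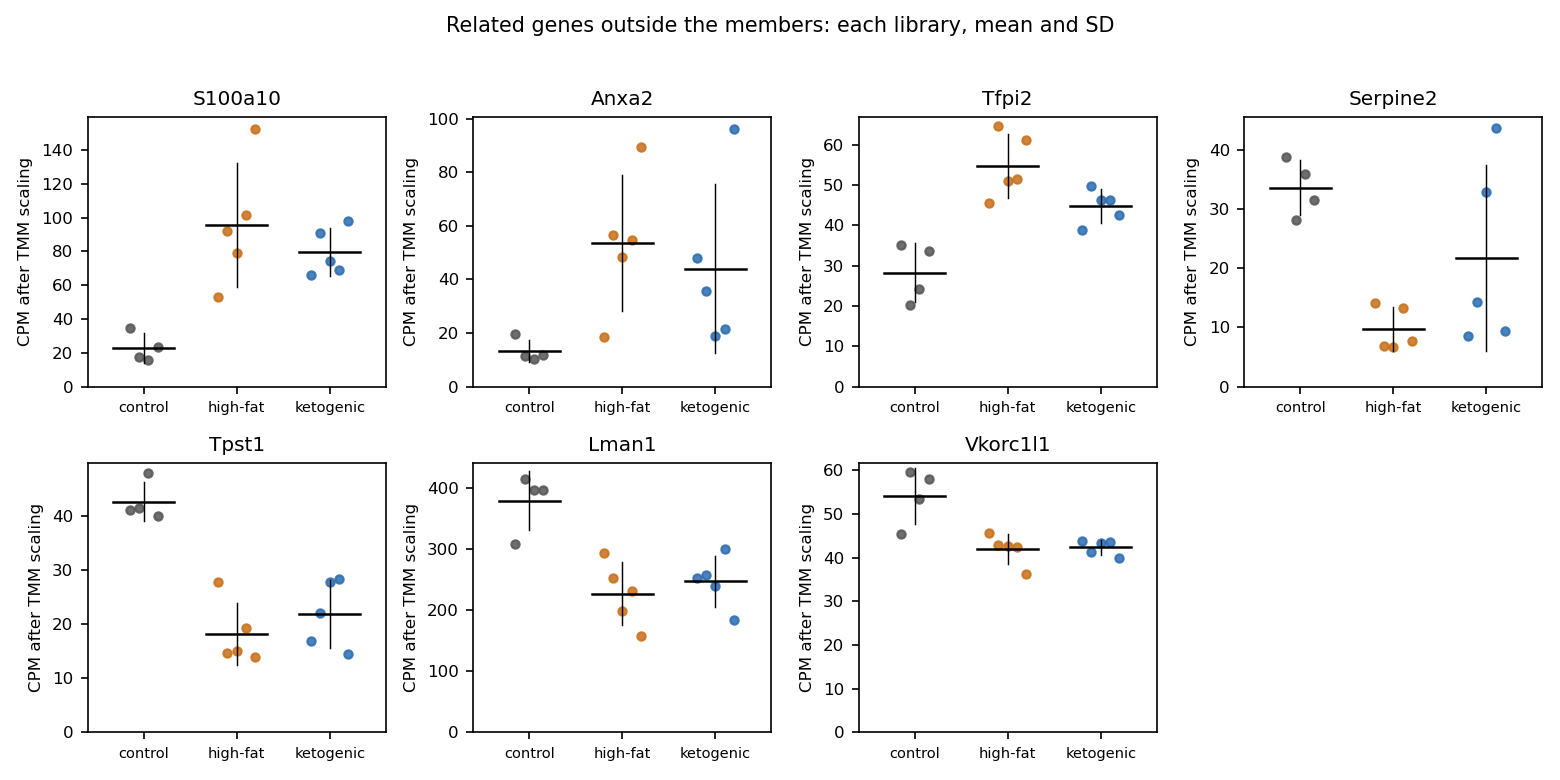
CPM after TMM scaling in each library (points), with the group mean (line) and SD (bar), for 7 related genes outside the 35 members. S100a10 is higher, and Tpst1 and Lman1 are lower, in every library of both fat-rich diets than in the controls.

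Of 16 transcription factors and receptors known to act on coagulation genes in liver, 1 rose in high-fat livers (6.25% called, beside 12.0% of all genes), and 1 rose and 1 fell in ketogenic livers (12.5%, beside 12.1%). These shares are near or under that of all genes. The receptor that rose was Nr1i3 (CAR), by 0.79 ± 0.21 (SE, adjusted p = 0.0219) and 1.44 ± 0.21 (SE, adjusted p = 0.000377) on the log2 scale. Its high-fat call held in 12 of 17 settings. It was lost with the replicate number in the model and without control replicate 4 or 5 or high-fat replicate 3 or 5. Cebpa fell in ketogenic livers, with -0.38 ± 0.12 (SE, adjusted p = 0.0438). That call held in 4 of 17 settings and was lost without control replicate 2, 3, 4 or 5 or ketogenic replicate 1, 2 or 5 (adjusted p from 0.00569 to 0.118 over all settings). Hnf4a, named after its values were seen, had 859 ± 179.9 CPM (SD, n = 4) in control, 588 ± 58.9 CPM (SD, n = 5) in high-fat and 610.1 ± 120.1 CPM (SD, n = 5) in ketogenic livers, with differences of -0.55 ± 0.17 (SE, adjusted p = 0.0506) and -0.49 ± 0.17 (SE, adjusted p = 0.0748) that did not pass. Of 12 acute phase genes, a class that in mice also includes fibrinogen, Saa2, Saa3 and Lcn2 rose in both diets and none fell (25% called in each, beside 12.0% and 12.1% of all genes). Saa2 had a log2 difference of 2.72 ± 0.78 (SE, adjusted p = 0.0413) in high-fat and 2.79 ± 0.78 (SE, adjusted p = 0.0375) in ketogenic livers, with reads that near-identical Saa copies may share, and Lcn2 2.52 ± 0.65 (SE, adjusted p = 0.0252) and 2.37 ± 0.64 (SE, adjusted p = 0.0314). The median of the acute phase list was 0.39 in high-fat and 0.18 in ketogenic livers, above 0, while that of the 3 fibrinogen genes and the factor XIII genes was -0.33 and -0.48. The acute phase list was mixed, with a higher point estimate for 7 and a lower one for 5 of the 12 genes in each comparison with control. These acute phase calls were lost in at least 6 of the 17 settings each. In high-fat livers that of Saa2 was lost without control replicate 2, 3 or 5 or high-fat replicate 2, 3, 4 or 5, of Saa3 without control replicate 2, 3, 4 or 5 or high-fat replicate 1, 3, 4 or 5 and of Lcn2 without control replicate 3 or 5 or high-fat replicate 3 or 5. All 3 calls were also lost there with no filter on low counts, and those of Saa3 and Lcn2 with the replicate number in the model. In ketogenic livers that of Saa2 was lost without control replicate 2, 3 or 5 or ketogenic replicate 5, of Saa3 without control replicate 2, 3, 4 or 5 or ketogenic replicate 3 or 5 and of Lcn2 without control replicate 2, 3 or 5 or ketogenic replicate 1, 2 or 5. In ketogenic against high-fat livers 0 genes of these lists passed.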

How the data were processed

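Liver RNA of 14 libraries (4 control, 5 high-fat, 5 ketogenic) was analysed. The deposited values are raw read counts per Ensembl gene, whole numbers without normalization, for 56980 IDs. Build GRCm39 and the tools cutadapt 1.16, STAR 2.7.9a, featureCounts 1.6 and DESeq2 1.36.0 are listed, without roles, per the submitters' processing notes. Per the labels' protocols, RNA was extracted with Trizol, and poly(A) libraries were made with a kit that keeps strand. The counting's strand setting, its handling of reads that match several genes and the annotation release are stated in no source used here, so that overlapping genes and near-identical copies are uncertain. Symbols, exon lengths, shared 50-base stretches and neighbours came from a GRCm38 annotation; symbols matched 91.39% of IDs and 98.17% of those tested.

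Genes were kept with filterByExpr of edgeR 4.0.16 (minimum count 10, minimum total 15), scaled with TMM (factors 0.886 to 1.215) and all 3 diets were fitted at once (robust glmQLFit, then glmQLFTest, two-sided, under R 4.3.3), with 14627 genes and a biological coefficient of variation of 0.25. P-values were adjusted by Benjamini-Hochberg over all genes tested, with a threshold of 0.05. The SE is the absolute log2 difference divided by the square root of F. Alternatives were DESeq2 1.42.0, library totals, DESeq2 size factors, no filter and only the groups compared. Others put the replicate number in the model, or a split of the library numbers into a lower and a higher set. Each library was also left out in turn. Leaving out high-fat replicate 1 and ketogenic replicate 5 together was added after seeing the data. The test was tried on simulated counts. For high-fat and ketogenic against control it recovered 16.9% and 19.7% of 1.5-fold changes and 61.2% and 60% of 2-fold changes. Of 105 and 117 genes called there, 6 and 6 were false. A gene that did not pass may thus still differ between diets.

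The members and lists were chosen with earlier results of these data known. Every member past the threshold, the fibrinogen chains, F2, Plg and Serpinc1 were given in all libraries; of each related list the up to 4 genes with the smallest adjusted p were named, and Ggcx and Vkorc1 whatever their result. A gene that this rule also names is not reported here. Further marker lists covered other cells.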

Additional observations from a re-analysis of the deposited data

Results flagged for a closer look

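In 15 of 153 groups, over 51 genes (the 35 members and the related genes named), 1 library lay so far from its group that its gap exceeded the 95% critical value of Dixon's test for its number of libraries. Chance alone flags about 1 in 20 groups, and 10 of the 15 concern members. No explanation was tested.

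Ketogenic replicate 5 accounted for 5 of the 15. In that library Procr had 1.90 CPM against 0.715 to 0.827 CPM in the rest of its group, and Plaur, the receptor of urokinase, had 2.82 CPM against 0.781 to 1.10 CPM in the rest of its group. Plau, urokinase itself, was at 11.4 CPM against 0.873 to 3.23 CPM in the rest of its group. Hrg was low there, at 761 CPM against 1107 to 1213 CPM in the rest of its group, as was Nr1i3, at 222 CPM against 389.8 to 452 CPM in the rest of its group. The other ketogenic value was Saa2 in replicate 3, at 381 CPM against 26.2 to 127 CPM in the rest of its group.

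Among the controls, replicate 4 was high for Fgb, with 5057 CPM against 3697 to 3903 CPM in the rest of its group, for Cpb2, with 467 CPM against 383 to 390.4 CPM in the rest of its group, and for Saa2, with 35.1 CPM against 10.0 to 13.2 CPM in the rest of its group. It was low for Klkb1, with 151 CPM against 173 to 177 CPM in the rest of its group. Control replicate 2 was low for Lman1, with 308 CPM against 397 to 415 CPM in the rest of its group, and control replicate 3 for Saa3, with 2.65 CPM against 4.23 to 4.47 CPM in the rest of its group.

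Among the high-fat libraries, replicate 1 was high for F7, at 120.1 CPM against 67.2 to 80.3 CPM in the rest of its group, and for Klkb1, at 159 CPM against 121 to 126 CPM in the rest of its group. Replicate 5 was low for F5, at 471 CPM against 672 to 728 CPM in the rest of its group.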

How the results depend on the processing

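No called value changed sign under the 17 alternatives run. Of the 13 member calls against control, 5 held in all 17 settings. Of 35 members, 4 passed in high-fat against control. With DESeq2 10 passed, with no filter 2 and with only those groups fitted 11. Without high-fat replicate 1 and ketogenic replicate 5 together (chosen after seeing the data) 19 passed. Of all genes 2441, 1322, 2518 and 3239 passed in these 4 settings. The last choice favours calls against control, since high-fat replicate 1 was the high-fat library nearest the controls. In ketogenic against control 9 passed, while 15 passed with DESeq2 and 5 with only those groups. Of all genes 2422 and 1268 passed in these 2 settings. Between the fat-rich diets 0 passed; 1 passed with DESeq2 and 3 without both libraries. With 1 library left out at a time, members passing ran from 1 to 7 in high-fat against control, from 4 to 13 in ketogenic against control and from 0 to 1 between the fat-rich diets. Over all genes the counts were then 934 to 2145, 1056 to 2201 and 1 to 315, against 1749, 1766 and 9. Without both libraries 3239 genes passed in high-fat against control and 636 between the fat-rich diets; there, 173 passed with DESeq2, 15 with library totals, 26 with no filter and 1 with only those groups. With library totals the split over all genes was 1302 higher and 420 lower in high-fat and 1826 and 368 in ketogenic against control (1016 and 733, and 1093 and 673, with TMM). The cause of these changes was not tested.

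The labels do not say that the replicate numbers pair the samples. Deviations of same-numbered libraries from their group means correlated from -0.18 to 0.17, from -0.09 to 0.38 and from -0.47 to 0.24 in the 3 comparisons. For libraries of different numbers the ranges were -0.31 to 0.35, -0.36 to 0.31 and -0.56 to 0.51. With 4 or 5 same-numbered pairs per comparison, these values cannot decide whether samples were paired. With the replicate number as a block, 1, 4 and 0 members and 1380, 1297 and 15 genes passed. Reads were few for Plat, with 3 to 15 in a control library, and its 95% interval in high-fat livers was 0.42 to 2.51 on the log2 scale.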

Other observations

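The control library that the submitters excluded as contaminated was scaled together with the others and read on its own. Of the 35 members, 20 lay below the range of the other 4 controls, 11 within it and 4 above it; of the 14627 genes tested, 19.6% lay below, 60.4% within and 20% above. F7 had 116 CPM against 146 to 162 CPM in the other controls, Cpb2 had 281 CPM against 382 to 466 CPM, and Fgb had 3611 CPM against 3691 to 5049 CPM. Vwf had 13.4 CPM against 9.20 to 14.1 CPM. No comparison used this library.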
